A study of Mus musculus with 2 samples.

Results

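A set of 9 transcription factors of the inhibitory interneuron lineage, Dlx1, Dlx2, Dlx5, Dlx6, Lhx6, Sox6, Satb1, Maf and Npas1, were followed in mouse hippocampal cultures with and without block of action potentials. Their probes were all non-control probes whose gene name in both array files was one of these 9 symbols, out of 22341 named genes on the array. The rule found 14 probes of 60 bases, each printed as 1 spot. On both arrays 12 of these stood well above the background signal and are called measured, so that each of the 9 genes had at least 1 measured probe. Hippocampal cells of embryonic day 16.5 ICR mouse embryos were grown for 12 days in vitro in medium with 5.5% serum. Ara-C, which kills dividing cells, was added at 5 µM on day 2 after plating in all cultures. The sample titles name 1 control and 1 culture treated with tetrodotoxin (TTX) for 2 days, while the text on treatment is the same for both. TTX is a toxin that blocks voltage-gated sodium channels, and it was used at 2 µM in the series' design text or 2 mM in the sample's source name. Total RNA of each culture was labelled with Cy3 and hybridised to 1 Agilent array, with both arrays on 1 slide.

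There was 1 array per group, so no difference had a replicate check and no test between conditions was possible. Precision is limited by having 2 arrays in all. The share of spots detected above background was 54.2% for control and 52.2% for TTX. Values are quantile-normalized signals in intensity units, and differences are log2 values of TTX minus control. The error given with a difference is the scanner software's own error estimate for the spots, which covers no variation between cultures. The median absolute difference of all 14115 measured genes was 0.24, and 83.7% of them were within 1.5-fold. The labelled treatment showed in Arc, a gene made in response to synaptic activity, with a signal of 4641 in control and 127 in TTX (log2 difference -5.19). The RNA came from mixed cells, in which fewer cells of a type and less RNA per cell cannot be told apart.

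The DLX homeodomain proteins act early in the ganglionic eminences of the ventral forebrain, where they drive precursors toward a GABAergic fate and let them migrate to cortex and hippocampus. Their genes lie in convergent pairs that share enhancers, Dlx1 with Dlx2 and Dlx5 with Dlx6. In cells from the medial eminence, NKX2-1 switches on the LIM-homeodomain gene Lhx6, and the HMG-box factor SOX6 and the chromatin organizer SATB1 act downstream of LHX6 in somatostatin and parvalbumin interneurons. MAF, a leucine zipper factor, acts in the same cells, and NPAS1 is a bHLH-PAS repressor of the interneuron lineage.

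Lhx6 had probes of very different composition, and Npas1 and Dlx1 were the members with the largest differences. Sequences of probes of these genes are therefore shown, along with that of the only Dlx6 probe. They are copied from the array files, 5′ to 3′ on the strand of the transcript, with mm9 coordinates of the whole probe, and capitals mark a run of AC repeats or the letters of a poly(A) signal, AATAAA or ATTAAA. Probes that may lie in untranslated sequence are shown as 30 bases only, and exon and UTR were not assigned because no mm9 annotation was used here.
Lhx6 probe 1, chr2:35937644-35937703, minus strand, bases 31 to 60: aACACACACACACACACACACACACACACa
Lhx6 probe 2, chr2:35937470-35937529, minus strand, bases 1 to 30: tcttatttgtgtAATAAAtaaagttaatgc
Lhx6 probe 3, chr2:35958379-35958438, minus strand, all 60 bases: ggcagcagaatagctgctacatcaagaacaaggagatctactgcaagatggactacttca
Npas1 probe 1, chr7:17041099-17041158, minus strand, bases 31 to 60: ttcttgagaATTAAAcaccatgccctaagg
Npas1 probe 2, chr7:17046680-17046739, minus strand, all 60 bases: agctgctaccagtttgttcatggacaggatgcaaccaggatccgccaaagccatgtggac
Dlx1 probe 1, chr2:71371499-71371558, plus strand, bases 31 to 60: ggccaagaagaaaaatcatactttgggcag
Dlx6, chr6:6815092-6815151, plus strand, all 60 bases: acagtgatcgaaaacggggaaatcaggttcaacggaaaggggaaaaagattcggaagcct

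Searched on the transcript strand only, either poly(A) signal was present in 13.7% of the array's probes, and a run of at least 8 AC or CA units in 0.0629% of them (35 of 55679). Lhx6 probe 1 carried 14 such units over 28 bases. No other member probe had such a run.

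Most of the 9 transcription factors had nearly the same signal on both arrays. Dlx2, Dlx5, Dlx6, Lhx6, Sox6 and Satb1 all differed by less than 0.3 on the log2 scale. Their 95% intervals, from the scanner software's spot errors, included 0. These errors were 0.20 to 0.22 for all members but the dim Dlx6 (0.35) and Sox6 (0.36). For most members the interval thus had nearly the same width. Dlx1, Npas1 and Maf were higher in the TTX culture, by 0.998, 0.68 and 0.47, and their intervals left out 0, except that of Maf with spike-in scaling. No member was at least 2-fold higher, where 2.07% of all measured genes were, and none was at least 2-fold lower, where 3.38% were. At 1.5-fold, 2 of the 9 were higher (7.64% of all measured genes) and none was lower (8.65%). The median of the 9 was 0.06 and that of all measured genes 0.01. The members' median lay below 0 in 4 of 10 processing alternatives, at -0.16 with scaling on spike-in controls, which moved the median of all measured genes to -0.19.

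**Figure D1:**
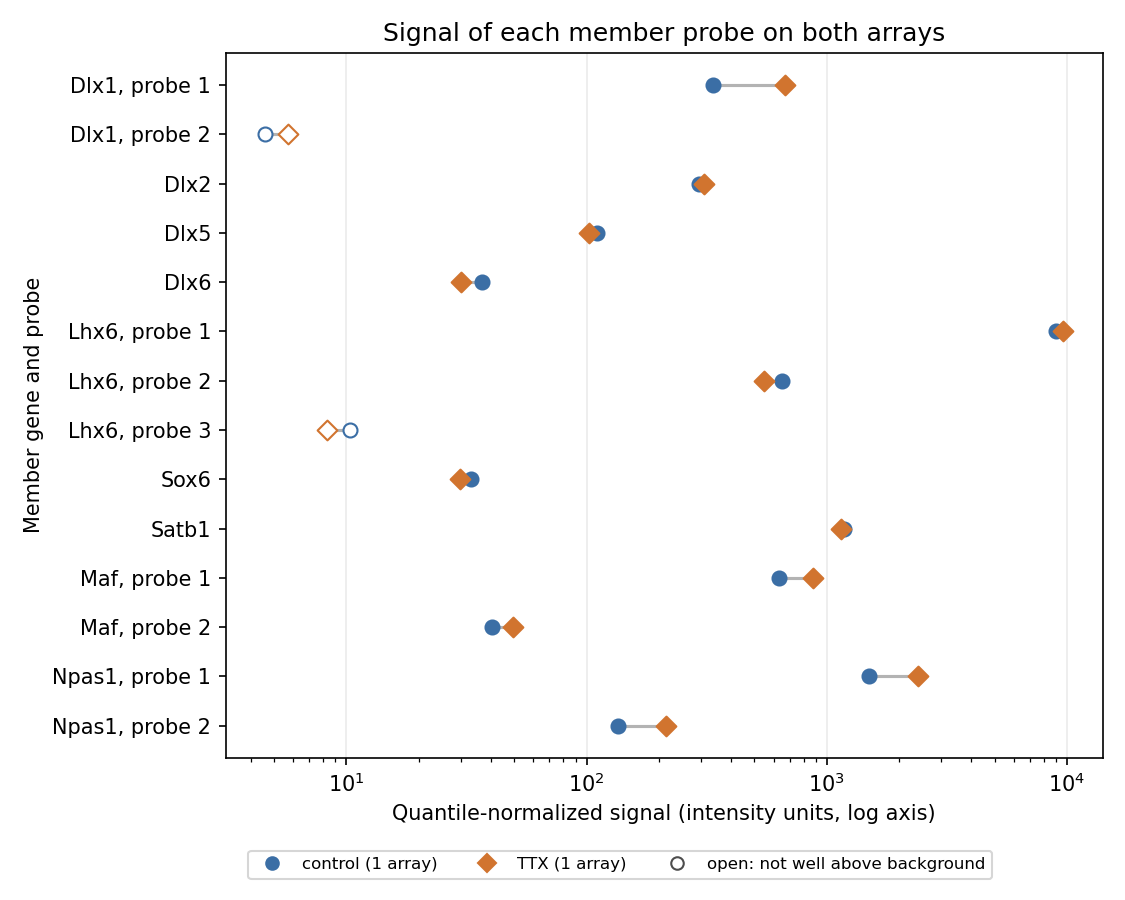
Quantile-normalized signal (log axis, intensity units) of each of the 14 member probes on the control array (circles) and the TTX array (diamonds), 1 array each, with open symbols for probes not well above background. The widest gaps among the filled symbols are those of Dlx1 probe 1, both Npas1 probes and Maf probe 1, each with TTX higher, while the symbols of Dlx2, Dlx5, Lhx6 probe 1, Sox6 and Satb1 overlap.

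Among the Dlx genes, Dlx1 differed from its partner. The signal of Dlx1 at probe 1 was 335 in control and 669 in TTX, a difference of 0.998 ± 0.20 (1.997-fold, just under the 2-fold line). Of the measured genes within 0.5 log2 of its control signal, 2.04% were at least as much higher in TTX. Its spot was in row 49 of the 384 rows of the array. Subtracting the median shift of spots of like signal in the same block of 48 rows left a difference of 0.96. The other Dlx1 probe (chr2:71367411-71367470) was not well above background on either array, so the Dlx1 value rests on 1 spot per array.

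Dlx2, whose probe lies 9.99 kb away on the opposite strand of chromosome 2 (chr2:71381553-71381612), had a signal of 294 in control and 307 in TTX. Its difference of 0.06 ± 0.21 changed sign with spike-in scaling (-0.10). Dlx1 exceeded Dlx2 in this measure by 0.94 (95% interval 0.37 to 1.51 from the spot errors alone), which is an unequal change of the pair on these 2 arrays. Dlx5 (chr6:6828063-6828122) was at 111 and 102 (-0.12 ± 0.22). Dlx6 was at 36.5 and 30.1 (-0.28 ± 0.35), close to the dimmest signals that counted as measured. These values put the Dlx5 and Dlx6 pair slightly lower in TTX by less than the error, and the interval of the difference between them ran from -0.64 to 0.96.

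Transcripts antisense to the Dlx genes had probes of their own, which were added after the values were seen and are not members. The Dlx1as probe, 564 bases from Dlx1 probe 1 on the other strand (chr2:71370875-71370934), was well above background in control only, with signals of 58.8 and 4.24. Against the lowest signal well above background on the TTX array (19.7), it was at least 2.99-fold lower in TTX after quantile normalization. That bound leaves out the spot error. The 95% interval of the difference from the spot errors, -6.65 to -0.94, included smaller differences than the bound. With normexp background correction its difference was only -0.82, which is less than that bound, so the size of the difference depends on the background correction. Dlx6as1, the long noncoding RNA from the Dlx5 and Dlx6 enhancer region, was at 333 in control and 222 in TTX (-0.58 ± 0.21). Dlx6as2 was at 121 and 145 (0.26 ± 0.21). The interval of Dlx6as2 (-0.16 to 0.68) included 0.

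Lhx6, the factor that marks interneurons of the medial eminence, gave different readings by probe. Probe 1, with the AC repeat, had signals of 8999 in control and 9591 in TTX (0.09 ± 0.20), a value that was -0.22 with spike-in scaling and -0.06 with 75th percentile scaling or none. Probe 2, which holds a poly(A) signal and no repeat, had 651 and 548 (-0.25 ± 0.20). Probe 3 had 10.4 and 8.29 and was not well above background on either array. The measured probes were thus on either side of 0, and both intervals included 0.

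The repeat set Lhx6 probe 1 among an unusual group of probes. Of the 35 probes with at least 8 AC or CA units, 34 were measured (97.1%), against 49.2% of the probes without such a run, and 91.4% had control signals of at least 1000, against 16.8%. Their differences covered a narrow range, with a median of 0.15 and a 5th to 95th percentile of 0.07 to 0.27, against -0.76 to 0.72 for measured probes without the repeat. The 0.09 of Lhx6 probe 1, which is among the probes that make up that narrow range, lay within it. The -0.25 of probe 2, a dimmer probe, lay outside it. Whether the repeat sets the signal of probe 1 was not tested.

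**Figure D2:**
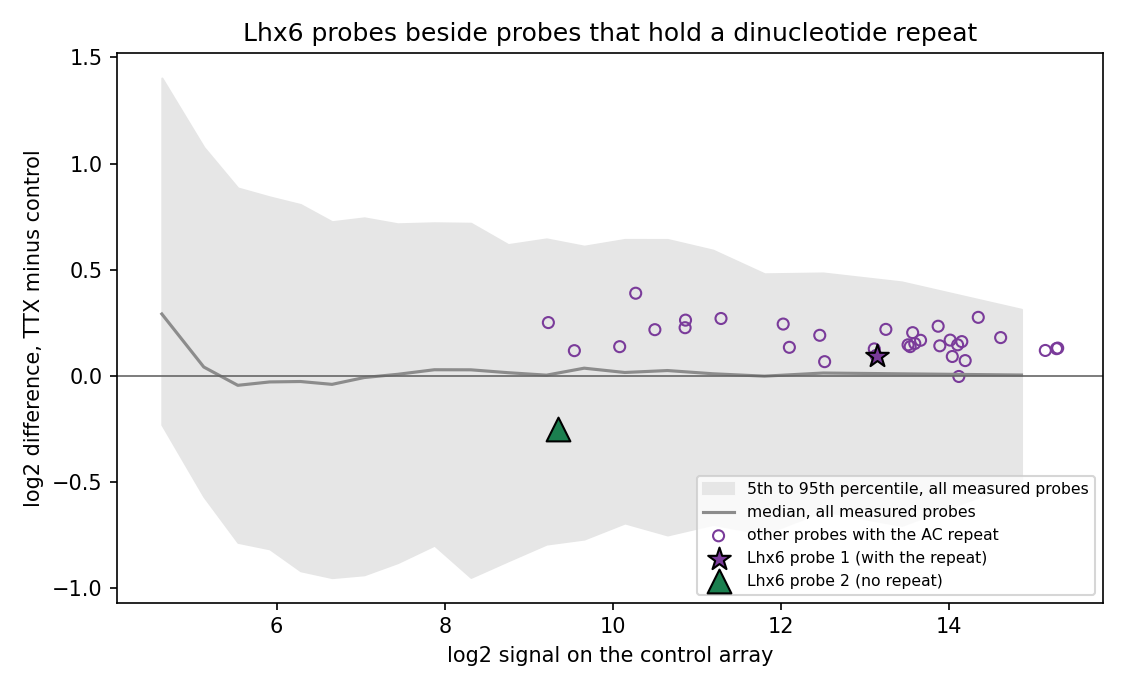
log2 signal on the control array (x) and log2 difference, TTX minus control (y), of the 34 measured probes with an AC repeat, with Lhx6 probe 1 as a star and Lhx6 probe 2, which has no repeat, as a triangle. The grey band is the 5th to 95th percentile of measured probes of like signal; the repeat probes lie in a narrow range around 0.15 and Lhx6 probe 2 lies at -0.25.

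The genes that act after LHX6 were level. Satb1 (chr17:51879137-51879196), a nuclear protein that organizes chromatin loops and is known to depend on activity in young somatostatin interneurons, had a signal of 1183 in control and 1142 in TTX (-0.05 ± 0.20, with -0.29 to -0.05 over the alternatives). Sox6 (chr7:122615418-122615477), which positions and matures these cells, was at 33.0 and 29.6 (-0.16 ± 0.36). Its probe was dim on both arrays, and its 95% interval from the spot errors, -0.86 to 0.54, included differences in either direction. SOX6 is also made in oligodendrocyte precursors, and the defining markers of that lineage, Olig2, Sox10 and Pdgfra, were not well above background on either array. Olig1 (279 and 480, 0.78) and Cspg4 (68.6 and 98.7, 0.52, or 0.25 in the lowest setting), which are also made in these precursors, were measured and higher in TTX, and their part in the Sox6 value was not tested.

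Npas1 and Maf were higher in TTX at each of their measured probes. Npas1 had signals of 1493 and 2391 at probe 1 (0.68 ± 0.20) and of 136 and 215 at probe 2 (0.66 ± 0.21), although the probes lie apart in the gene and in rows 39 and 164 of the array. Over the alternatives its value stayed between 0.41 and 0.68. Among genes within 0.5 log2 of its control signal, 4.51% were at least as much higher.

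Maf had signals of 633 and 877 at probe 1 (chr8:118227736-118227795; 0.47 ± 0.20) and of 40.2 and 49.4 at the dimmer probe 2 (chr8:118207273-118207332; 0.30 ± 0.29). Only the interval of probe 1 left out 0, and with spike-in scaling it included 0 (0.25, from -0.15 to 0.65). Of the genes within 0.5 log2 of its control signal, 9.45% were at least as much higher. Maf is also a gene of macrophages and other non-neuronal cells. The microglia markers had a median of 0.36 (0.16 to 0.49 over the alternatives), with 5 of 7 measured members above 0. Their summed signal was 19233 in control and 21363 in TTX. Most of that sum came from Itgam, at 18172 and 20323, whose probe also holds the AC repeat. Of their defining genes, Cx3cr1 and P2ry12 were not well above background, Csf1r was at -0.36 with probes from -1.08 to 0.27, and Tyrobp was at 0.60. Their part in the Maf value was not tested.

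**Figure D3:**
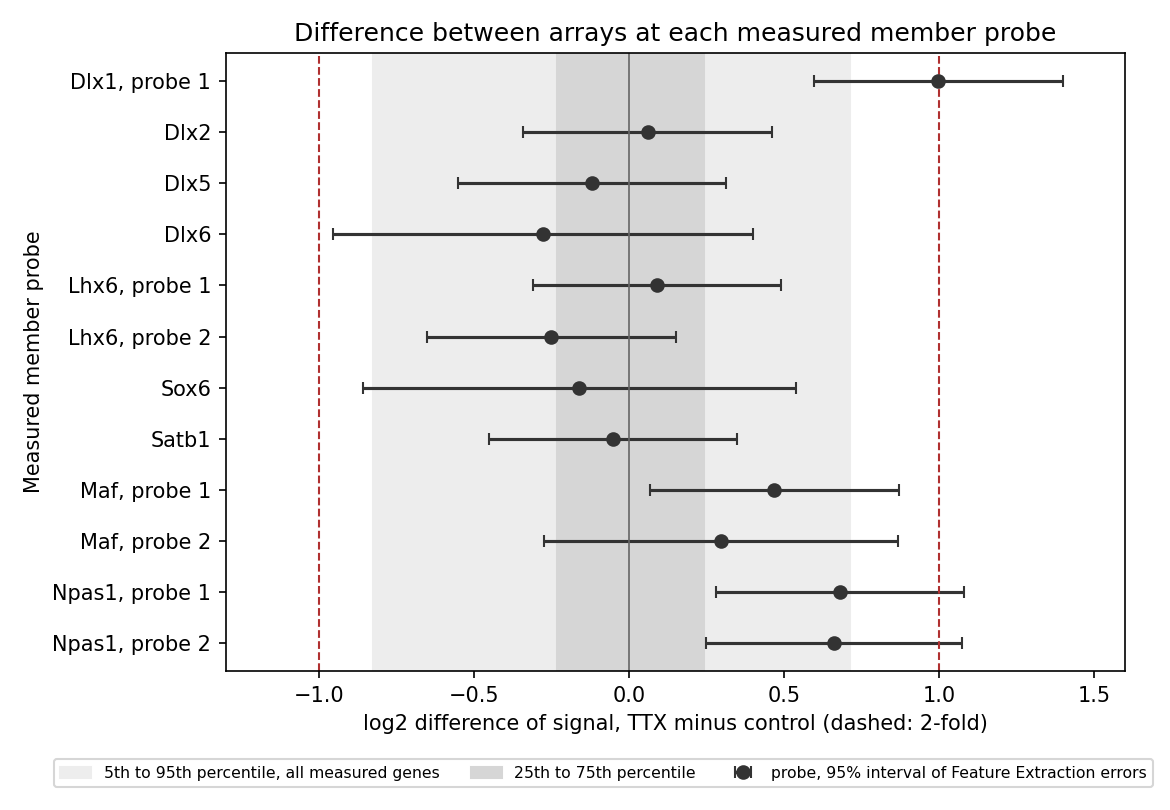
log2 difference of signal, TTX minus control, at each of the 12 measured member probes, with bars for the 95% interval from the scanner software's errors and dashed lines at 2-fold. Shaded bands give percentiles of all measured genes (5th to 95th, -0.82 to 0.71); only Dlx1 probe 1 lies beyond the outer band, and the bars of both Npas1 probes and Maf probe 1 also leave out 0.

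Other transcription factors of the same lineage were divided by size of difference. In TTX 2 were at least 1.5-fold higher (7.64% of all measured genes) and 2 at least 1.5-fold lower (8.65%). Of the 16 on the list, 12 were measured, and their median was 0.32 (0.11 with spike-in scaling). By sign alone 9 of the 12 were above 0, where 51.1% of all measured genes were. The caudal-eminence factor Nr2f2 was at 0.40 ± 0.20, and at 0.13 in the lowest of the scalings. Prox1 (1.02 ± 0.20), which marks caudal-eminence interneurons and dentate granule neurons, was the only one of the list at 2-fold, though not with spike-in scaling (0.82). Etv1 (-0.62) was lower, and Sp8 was lower at its brighter probe (-0.84) and at -0.27 at the other. Of the genes of the earliest eminence steps, Gsx1, Lhx8 and Isl1 were not well above background on either array, and Nkx2-1 was just above it in control only, with signals of 21.9 and 19.6.

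Close relatives of the members gave the scale of difference within each family. Of 17 relatives 13 were measured, with a median of 0.17 (0.00 without the filter on dim probes) and 8 above 0. The lists share some genes, Npas3 among them. The activity-induced bHLH-PAS factor Npas4 was at 780 in control and 67.5 in TTX (-3.53 ± 0.23), so the differences of Npas1 and Npas4 were 4.21 apart. Npas3 was at 0.17. Dlx3 (-0.06) and the LIM-homeodomain gene Lhx2 (0.00), a factor of excitatory neurons and progenitors, were level, and Dlx4 was not well above background.

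Genes of the GABAergic phenotype that these factors promote were divided. Of 8 measured, 4 were above 0, with a median of 0.14 that was -0.09 with spike-in scaling and -0.11 with a stricter filter on dim probes. The GABA-synthesizing enzyme Gad1 was at 10459 and 6432 (-0.70 ± 0.20), while Gad2 was at -0.11 and the vesicular GABA transporter Slc32a1 at -0.33. The chemokine receptor Cxcr4, which guides migrating interneurons and is made by other cells too, was at 63.1 and 202 (1.68 ± 0.22, with 1.12 as the lowest over the scalings and background corrections). Its partner Ackr3 was at 455 and 730 (0.68 ± 0.20).

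Markers of interneuron subtypes differed by more than the members did. Of 20 measured, 7 were at least 2-fold lower in TTX, where 3.38% of all measured genes were. At least 2-fold higher were 2 (2.07% of all measured genes), and the median was -0.33. The CRH-binding protein gene Crhbp was at 655 and 114 (-2.52 ± 0.21), Lamp5 at 139 and 28.5 (-2.28 ± 0.10, but -1.14 as the smallest over the scalings and background corrections) and the nociceptin precursor Pnoc at 8066 and 1792 (-2.17 ± 0.20). Calretinin (Calb2) was at 906 and 4355 (2.27 ± 0.20). Sst, whose cells depend on Lhx6, Sox6 and Satb1, was at -0.19 ± 0.06, and at -0.50 in the lowest of the scalings. The error shrinks with the number of spots of a probe, so those of Sst and Lamp5 are not comparable with single-spot errors. Cort and Npy, peptide genes also made in somatostatin cells, were at -2.08 and -1.60. Other genes of the list went the other way. Nos1 was at 53.6 and 240 (2.16, with 1.46 as the lowest over the scalings and background corrections). Chodl, at 3.94 and 39.5, was above background in TTX only. By sign, 14 of the 20 measured were below 0 and 6 above. The lists were not tested against each other.

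**Figure D4:**
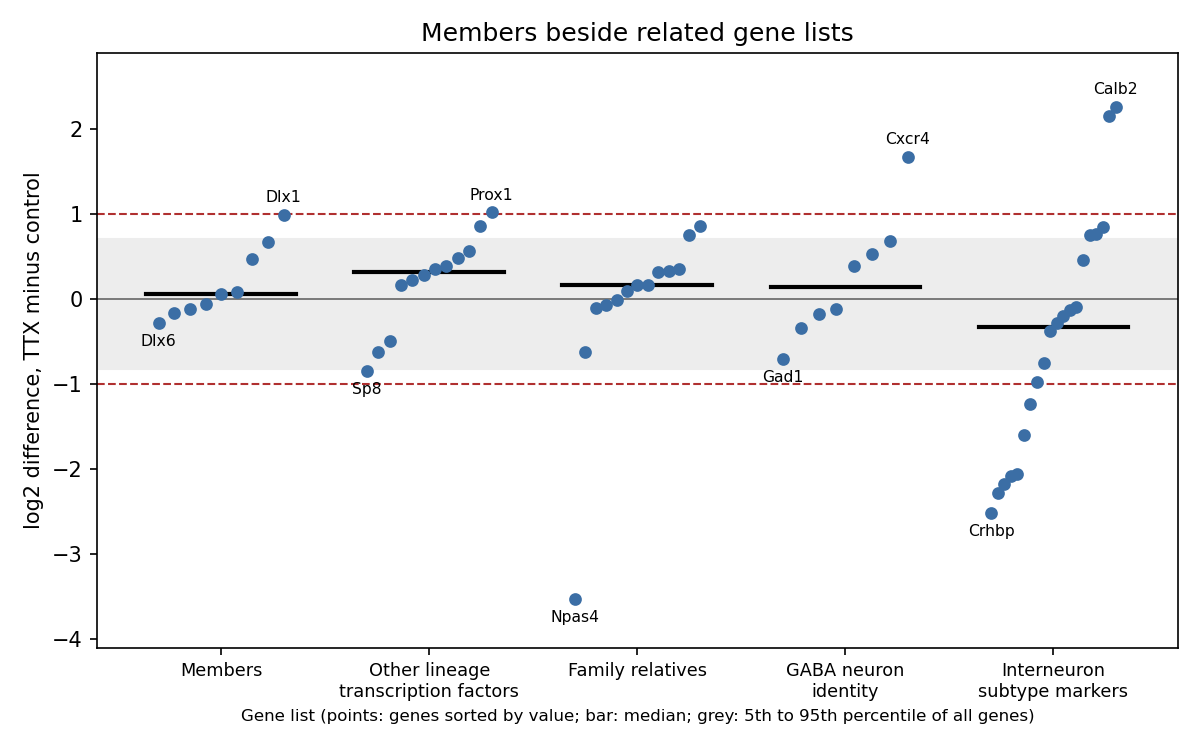
log2 difference, TTX minus control, of each measured gene in 5 lists, with genes sorted within a list, a black bar at the list median, a grey band for the 5th to 95th percentile of all measured genes and dashed lines at 2-fold. The 9 members lie between -0.28 and 0.998, while the 20 interneuron subtype markers run from -2.52 to 2.27.

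Markers of other cells in the dish are given as measured, and their part in the values above was not tested. Excitatory neuron markers of hippocampus were all 10 measured and had a median of 0.32 (0.06 with spike-in scaling), with Slc17a7 at -0.22, Neurod6 at -1.10, Tbr1 at 0.97 and Slc17a6 at 0.74. Astrocyte markers had a median of 0.40, or 0.15 with spike-in scaling, with 7 of 9 measured genes above 0 and Gfap at 0.78 (0.47 in the lowest of the scalings). The glutamate transporter gene Slc1a2, at 1794 and 867 (-1.05), was the only one past 2-fold, and Aldh1l1 was at -0.14. The list had summed signals of 52725 in control and 63290 in TTX, most of which came from Aldoc, at 38706 and 44061. In the oligodendrocyte list 6 of 10 were measured, with a median of 0.20 that lay between 0.01 and 0.04 with spike-in scaling or another filter on dim probes. Fibroblast and vascular markers had a median of 0.13, with Col1a1 at 0.28 and Fbln1 at 2.38. Of 9 genes of dividing cells 6 were measured, with a median of 0.23, or 0.07 with spike-in scaling and 0.06 without the filter on dim probes. Mki67 was at 31.6 and 352 (3.48, with 2.13 as the lowest over the scalings and background corrections). Ccnb1, at 57.6 and 7.32, was above background in control only and at least 2.93-fold lower after quantile normalization. That bound leaves out the spot error and was not computed with normexp background correction. Top2a and Cdk1 were not above background on either array. Among Cajal-Retzius markers, Trp73 was at -0.35 and the median was -0.22. Of the 6 measured, 1 was above 0, Calb2 (2.27), which is also on the subtype list. With the stricter filter, which drops dim genes, the median was 0.95, a value that rests on Calb2.

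**Figure D5:**
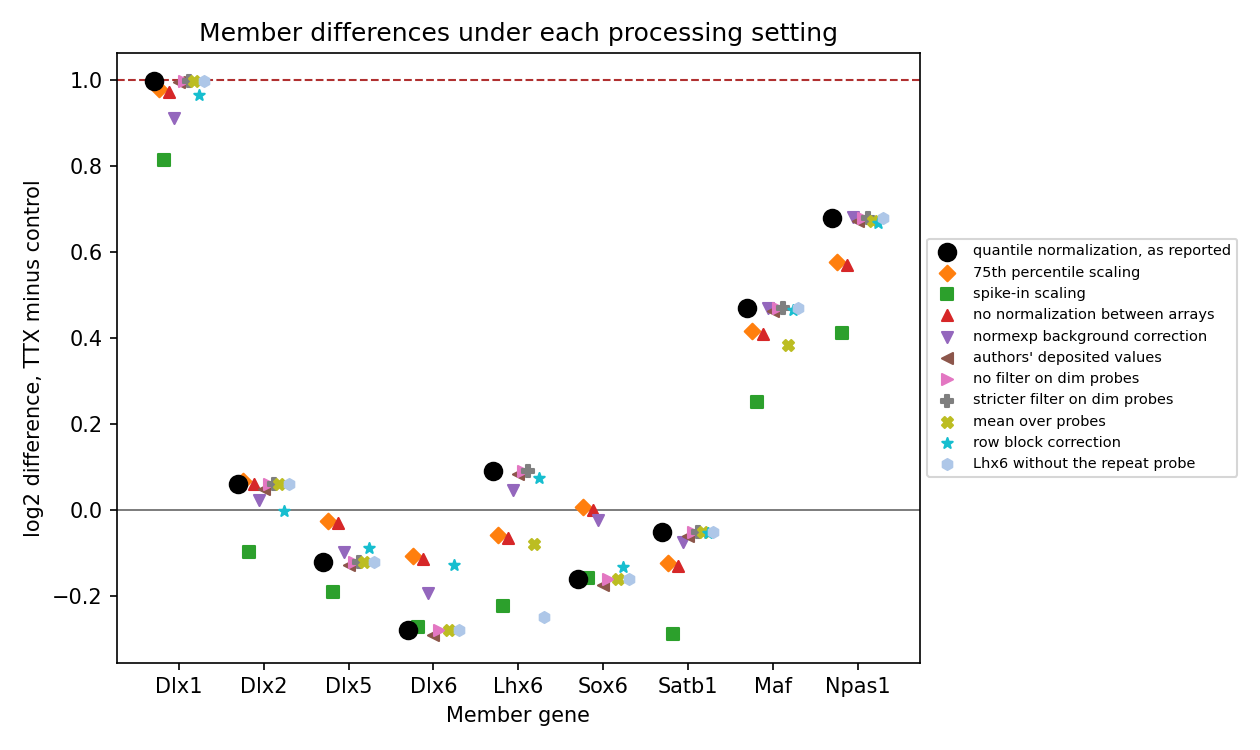
log2 difference, TTX minus control, of each member gene under the reported processing (large black circles) and 10 alternatives (small symbols), with a dashed line at 2-fold. Dlx1, Maf and Npas1 stay above 0 in every setting shown, while Dlx2, Lhx6 and Sox6 cross 0.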

How the data were processed

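The authors' scanner files, 1 per culture, hold spot intensity on a linear scale after background subtraction and detrending, per the file headers. Those headers name Feature Extraction 10.7.1.1, whereas 9.5.1.1 stands in the submitters' processing notes. The table of values deposited by the authors holds normalized intensity, and its differences correlated at 0.9999 with those computed here over 27398 measured probes. None of the deposited intensities was on a log2 scale. Of 59305 non-control spots, those marked as outliers were left out, and the others were quantile normalized, as the series' design text names, put on a log2 scale and averaged per probe. Measured probes had 0.5 or more of their spots well above background on each array, and the brightest such probe stood for its gene. Genes were named through RefSeq symbols of assembly GRCm38.p6, or by the files' gene name for the members. Nothing shows that the arrays come from more than 1 culture each, and no p-value was computed.

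Of 261 measured probes printed 10 times, the pooled SD of the spot difference was 0.15. The members, gene lists and 2-fold size rule were chosen with earlier results of these data known. All members could be named, of marker lists the 4 largest differences and fixed defining genes. Some genes that this rule names are not reported here, though list counts and medians include them. Other genes named (Itgam, Sox10, Cx3cr1, P2ry12, Cort, Npy, Nos1, Aldh1l1, Aldoc, genes not measured, the antisense transcripts) and the Lhx6 alternative were chosen after their values were seen. Alternatives were 75th percentile, spike-in (7 probes) and no scaling, normexp background correction with offset 50 in limma 3.58.1, the authors' values, dropping the filter on dim probes or making it stricter, the mean over probes, a correction by blocks of 48 rows, a 1.5-fold rule, and Lhx6 without its repeat probe. Only the quantile normalization and the averaging per probe were tested on simulated data.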

Additional observations from a re-analysis of the deposited data

How the results depend on the processing

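Scaling on the spike-in controls moved the members' median from 0.06 to -0.16, together with the median of all measured genes, and the 1.5-fold rule raised the number of higher members from 0 to 2 (Dlx1 and Npas1). No alternative run put a member at or past 2-fold, in either direction. Of 88 values of single members under the alternatives, 5 moved by more than their own spot error: Lhx6, Satb1, Maf and Npas1 with spike-in scaling, and Lhx6 without its repeat probe. Dlx1 stayed between 0.81 and 0.998. Of 110 medians of the other lists 19 moved. The stricter filter on dim probes dropped Dlx6 and Sox6. No paired analysis was possible because each group had 1 array. Signal over background limits Dlx6 and Sox6, and Dlx1, Dlx2, Dlx5, Dlx6, Sox6 and Satb1 each rest on 1 measured probe.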
